A study of Mus musculus with 6 samples.

Results

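The receptors and ligands of the Notch pathway were examined in 4 lung tumors and 2 samples of normal lung. The 9 genes were taken by symbol from a table of 22477 gene symbols. They comprise 4 receptors (Notch1 to Notch4), 4 activating ligands (Dll1, Dll4, Jag1 and Jag2) and the inhibitory ligand Dll3. All 9 were among the 18027 genes with enough counts to be tested. The tumors were RPM lung tumors of mice whose genotype is given as Rb1/Trp53/MycT58A, and the normal lung tissue carried the same genotype label. In this mouse model of small cell lung cancer, the floxed genes Rb1 and Trp53 are deleted by Cre recombinase, which also switches on a stabilized form of Myc. Ad5CGRP-Cre, an adenovirus with a promoter active in neuroendocrine cells, is listed as the treatment of both groups, and the labels' protocol gives 8 weeks of age for its instillation into the trachea in a first cohort. The age at collection and any treatment arm of these 6 animals are not stated in the labels. Libraries are named after the numbers in their titles, as tumor 3, 4, 5 and 6 and normal 1 and 2, and each names its own mouse.

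Notch receptors are cleaved when a ligand on a neighboring cell pulls on them, and the released intracellular part enters the nucleus, joins the DNA-binding protein Rbpj and switches on target genes such as Hes1. In the lung, the pathway sets the choice between secretory, ciliated and neuroendocrine fates in the airway and patterns the vessels. Neuroendocrine cells are known for low Notch signaling and for Dll3, which does not activate Notch on other cells and is held largely inside the cell that makes it. Dll3 is also a cell surface target for therapy of small cell lung cancer.

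The start regions of 3 ligand genes are shown because Dll3 was the ligand with the largest rise, Jag1 fell, and Jag2 was the activating ligand that did not fall. Each line holds 250 bases before and 50 after a gene start, read 5′ to 3′ on the gene's strand from RefSeq on GRCm38.p6, and capitals mark every E-box, the motif CANNTG bound by basic helix-loop-helix factors. Dll3 lies at chr7:28301736-28302035, Jag1 at chr2:137116471-137116770 and Jag2 at chr12:112929446-112929745, all on the minus strand of that build, which differs from the mm9 build named for the counts.
Dll3: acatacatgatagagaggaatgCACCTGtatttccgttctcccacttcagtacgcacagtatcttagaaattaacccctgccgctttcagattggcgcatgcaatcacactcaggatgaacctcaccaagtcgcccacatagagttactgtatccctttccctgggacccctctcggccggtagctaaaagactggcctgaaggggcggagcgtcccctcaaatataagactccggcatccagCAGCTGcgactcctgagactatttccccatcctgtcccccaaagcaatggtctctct
Jag1: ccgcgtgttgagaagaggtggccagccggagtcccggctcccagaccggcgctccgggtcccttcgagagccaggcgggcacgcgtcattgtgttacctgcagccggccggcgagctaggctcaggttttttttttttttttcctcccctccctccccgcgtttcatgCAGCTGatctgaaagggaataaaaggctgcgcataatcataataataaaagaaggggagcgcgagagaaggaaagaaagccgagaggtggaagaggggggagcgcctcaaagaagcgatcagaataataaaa
Jag2: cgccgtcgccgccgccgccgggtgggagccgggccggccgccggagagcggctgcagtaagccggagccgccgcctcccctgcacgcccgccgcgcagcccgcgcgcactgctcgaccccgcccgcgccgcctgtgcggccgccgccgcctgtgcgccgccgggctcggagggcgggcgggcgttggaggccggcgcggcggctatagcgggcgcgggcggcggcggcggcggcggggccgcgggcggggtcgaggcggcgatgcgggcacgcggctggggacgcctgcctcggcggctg

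The Dll3 window held 2 E-boxes, 1 of the form CAGCTG and 1 of the form CAGGTG on the other strand, the Jag1 window held 1 CAGCTG, and the Jag2 window held 0 and had 86.0% G and C. Searched on both strands, CAGCTG stood in 3 of the 10 start regions listed for the 9 genes, where Dll1 has 2, and in 16.3% of all 32851 start regions of that length. CAGGTG, which like CAGCTG is a case of CANNTG, stood in 2 of the 10 and in 20.2% of all, and CANNTG in 5 of the 10 and in 72.3% of all. TGGGAA, the core motif of Rbpj, stood in 0 of the 10 and in 25.6% of all. These matches describe letters in the windows and are not binding sites.

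Counts summed to 54735438 to 70817440 in tumors and to 91049413 to 99122494 in normal lung. Rn45s, Rpph1 and Rmrp, RNAs without a poly(A) tail, took 5.46% to 13.9% of the counts in tumors and 0.238% to 0.55% in normal lung. Myc stood at 70.2 to 175 CPM (counts scaled to library size) in tumors, against 7.90 to 18.2 in normal lung, while whole-gene counts of Rb1 and Trp53, in which only some exons are floxed, averaged 62.6 and 11.5 CPM across tumors, against 77.8 and 22.1 in normal lung. The tumors carried the markers of their type, as 12 of 13 neuroendocrine genes were higher and none was lower, with Chga (a dense granule protein) at 55.1 to 162 CPM in tumors and 0.142 to 1.34 in normal lung, and Syp (a synaptic vesicle protein) at 71.3 to 104 CPM in tumors and 5.38 to 5.80 in normal lung. All 10 proliferation genes were higher as well, with Mki67 at 457 to 764 CPM and Top2a at 505 to 790 in tumors, against 38.9 to 53.4 and 26.0 to 34.0 in normal lung. Among all genes tested, 31.3% were higher.

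Of the 9 genes, 7 were lower in tumors and 1, Dll3, was higher (edgeR quasi-likelihood test, Benjamini-Hochberg adjusted p under 0.05). Over all 18027 genes tested, 32.6% were lower and 31.3% higher, 63.9% in all, so a call in either direction was common. The median log2 fold change over all tested genes was 0.02. Jag2 missed the threshold. The levels by library show that all 4 tumors lay on 1 side of both normal libraries for each of the 9 genes, below for 7 and above for Jag2 and Dll3. Over all tested genes, 39.8% had every tumor below both normal libraries and 37.4% every tumor above. These are bulk samples, in which fewer cells of a type and less RNA per cell cannot be told apart.

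**Figure D1:**
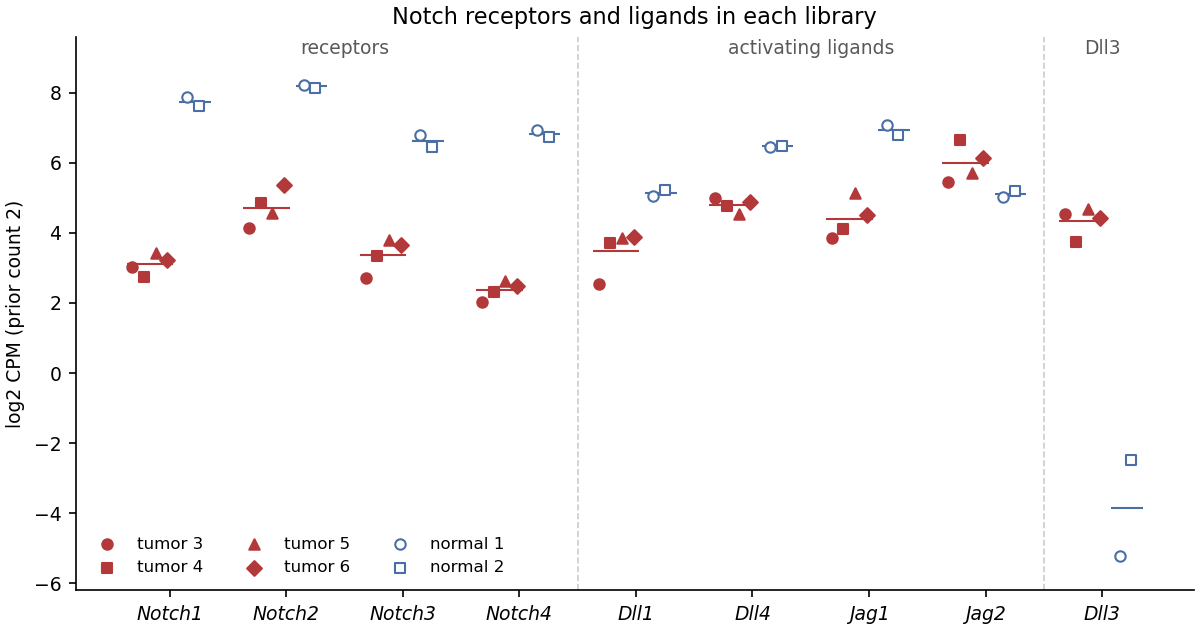
Level of each gene in each library as log2 CPM with a prior count of 2, with tumors as filled red symbols, normal lung as open blue symbols and horizontal lines at the group means. The 4 receptors, Dll1, Dll4 and Jag1 sit lower in tumors, Jag2 and Dll3 sit higher, and the point of Dll3 in normal 1 is a count of 0 placed by the prior count.

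All 4 receptors fell. Notch1, the receptor of broadest use in vessels and epithelium, stood at 8.14, 6.62, 10.8 and 9.38 CPM in tumors 3 to 6 and at 236 and 196 CPM in normal 1 and 2. Its log2 fold change of -4.63 ± 0.22 (SE, edgeR, adjusted p = 3.31e-05) is the lowest of the 9, with every tumor far below both normal libraries. Notch4, the receptor known mainly from endothelium, had 4.05, 4.93, 6.12 and 5.52 CPM in tumors 3 to 6 and 122 and 107 CPM in normal 1 and 2. It fell by 4.47 on the log2 scale (SE 0.20, edgeR adjusted p = 2.95e-05), and it also varied little among tumors, by 1.51-fold between the lowest and the highest.

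Notch2, which acts in airway secretory cells and in B cells, had 17.4, 28.7, 23.8 and 40.9 CPM in tumors 3 to 6 and 301 and 281 CPM in normal 1 and 2. Its log2 fold change was -3.39 (SE 0.32, edgeR adjusted p = 0.000216), and it spread 2.35-fold among tumors, with tumor 6 highest. Notch3, the receptor of pericytes and vascular smooth muscle, had 6.57, 10.0, 14.0 and 12.7 CPM in tumors 3 to 6 and 112 and 87.0 CPM in normal 1 and 2. It fell by 3.20 on the log2 scale (SE 0.30, edgeR adjusted p = 0.000236). No receptor had a tumor within the range of normal lung, and each kept its call under all 14 other settings.

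Of the activating ligands 3 fell, with log2 fold changes from -2.46 to -1.56. Jag1, a ligand of endothelium, smooth muscle and airway cells, had 14.4, 17.1, 34.9 and 23.0 CPM in tumors 3 to 6 and 136 and 111 CPM in normal 1 and 2. Its log2 fold change was -2.46 ± 0.35 (SE, edgeR, adjusted p = 0.00106), and tumor 5, the highest, was 2.43-fold above tumor 3, the lowest. Dll4, the ligand of arterial and sprouting endothelium, had 31.9, 27.2, 23.2 and 29.8 CPM in tumors 3 to 6 and 87.4 and 89.7 CPM in normal 1 and 2. It fell by 1.66 on the log2 scale (SE 0.16, edgeR adjusted p = 0.000275) and was the steadiest of the 9 among tumors, with a 1.38-fold spread. Dll1, a ligand of many progenitor cells, had 5.75, 13.0, 14.5 and 14.7 CPM in tumors 3 to 6 and 33.1 and 37.5 CPM in normal 1 and 2. The log2 fold change of Dll1 was -1.56 ± 0.37 (SE, edgeR, adjusted p = 0.00992). Tumor 3 stood apart from the other tumors in Dll1. The call of Dll1 was lost without normal 2 (log2 fold change -1.49, adjusted p = 0.0595).

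Jag2, an activating ligand of airway basal and other epithelial cells, had 43.8, 101, 52.8 and 70.4 CPM in tumors 3 to 6 and 32.8 and 36.8 CPM in normal 1 and 2. Every tumor was above both normal libraries, and tumor 4 was highest. The log2 fold change was 0.95 ± 0.35 (SE), with an unadjusted p of 0.032 and an adjusted p = 0.0501 (edgeR), just outside the threshold. The adjusted p ran from 0.0133 to 0.218 over 14 other settings, and 9 of them put Jag2 past the threshold. Markers of basal cells stood at a sum of 14.9, 1.96, 6.34 and 44.7 CPM in tumors 3 to 6 and 1.97 and 5.06 in normal 1 and 2. The defining markers Krt5 and Trp63 were both at 0 in tumor 4, where Jag2 was highest. Counts of basal genes were low and uneven, as Krt5 had 24, 0, 4 and 1100 counts in tumors 3 to 6 and 0 and 58 in normal 1 and 2. Of the 6 basal genes 0 fell and 1, the keratin gene Krt17, rose, beside 32.6% lower and 31.3% higher over all genes. The part of basal cells in the Jag2 values was not tested.

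Dll3 was close to absent from normal lung and present in every tumor. It had 1562, 681, 1980 and 1429 counts in tumors 3 to 6 and 0 and 14 counts in normal 1 and 2. These counts correspond to 23.3, 13.4, 25.8 and 21.4 CPM in tumors and to 0 and 0.151 CPM in normal lung. The log2 fold change of Dll3 was 8.10 ± 1.20 (SE, edgeR, adjusted p = 0.00135), and the mean CPM was 277-fold higher in tumors than in normal lung. The size rests on the few normal counts. Without normal 1 the log2 fold change was 7.09. Without normal 2, which leaves a count of 0, the mean CPM of the tumors was 688-fold higher than a floor of 3 counts in normal 1, or 0.0305 CPM. The floor covers counting error only. Of 13 neuroendocrine genes, 9 were higher in normal 2 than in normal 1 and the others were lower. The defining marker Chga was at 1.34 against 0.142 CPM, and Syp at 5.80 against 5.38 CPM. No share over all genes is given beside this count. The part of the neuroendocrine genes in the Dll3 counts of normal 2 was not tested.

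Dll3 was lowest in tumor 4. Neurod1, a neurogenic factor, was lowest in the same tumor, at 40.7, 7.95, 41.0 and 25.8 CPM in tumors 3 to 6, and 0 and 0.129 CPM in normal 1 and 2. The ratio of Dll3 to Neurod1 CPM ranged from 0.572 in tumor 3 to 1.68 in tumor 4.

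**Figure D2:**
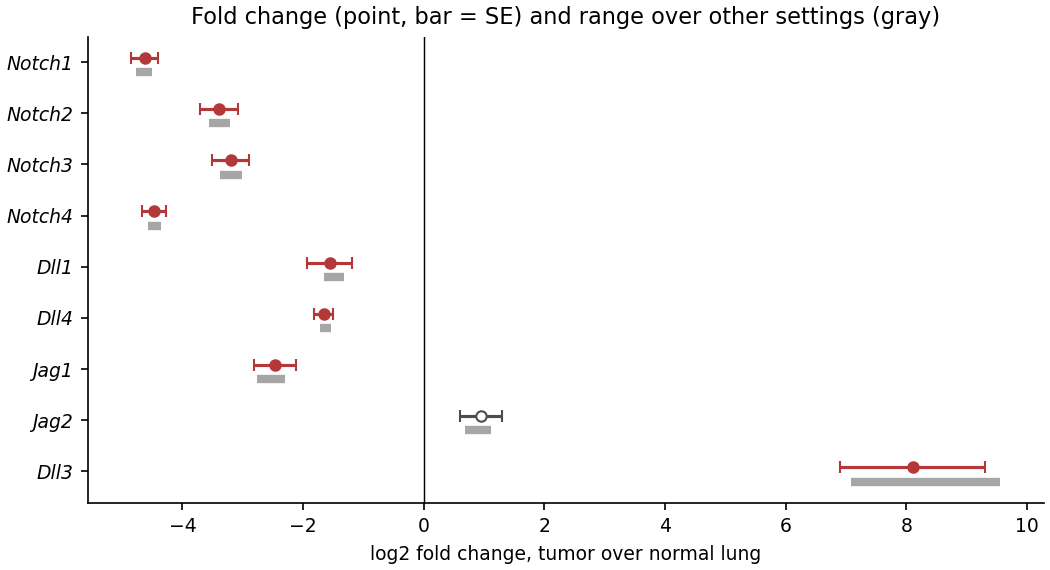
Log2 fold change of tumor over normal lung with its SE (points, filled where the adjusted p is under 0.05) and the range over the other settings of scaling, filter, test and libraries (gray). Receptors lie between -4.63 and -3.20, the falling ligands between -2.46 and -1.56, Jag2 at 0.95 and Dll3 at 8.10, whose gray range omits the fit with 0 normal counts.

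The order of levels within the family differed between tumors and normal lung when CPM was divided by exon length in kilobases. Among receptors, Notch2 was highest in both groups, at 2.64 ± 0.94 CPM per kb (SD, n = 4) in tumors and 27.7 ± 1.31 (n = 2) in normal lung. Notch3 followed in tumors at 1.35 ± 0.41 CPM per kb and was the lowest receptor in normal lung at 12.4 ± 2.17. Notch1 stood at 0.92 ± 0.19 CPM per kb in tumors, against 22.7 ± 3.00 in normal lung, and Notch4 at 0.78 ± 0.13 in tumors, against 17.4 ± 1.54 in normal lung. Within every tumor Notch2 was highest and Notch3 stood above Notch4. The place of Notch1 varied, as it stood above Notch3 in tumor 3 and below Notch4 in tumor 4. The 4 receptors together summed to 5.69 ± 1.39 CPM per kb in tumors and 80.2 ± 8.02 in normal lung.

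Among ligands, Jag2 had the highest mean in tumors at 13.1 ± 4.95 CPM per kb, although its range overlapped that of Dll3, against 6.82 ± 0.56 in normal lung, where it was the lowest activating ligand. Dll3 and Dll4 were next in tumors at 8.00 ± 2.05 and 7.47 ± 1.01 CPM per kb, ranges that overlap, and stood at 0.029 ± 0.041 and 23.6 ± 0.42 in normal lung. Jag1 and Dll1 overlapped at the low end in tumors, at 3.98 ± 1.62 and 3.34 ± 1.18 CPM per kb, against 22.0 ± 3.08 and 9.87 ± 0.87 in normal lung. As shares of the 5 ligands per length, Jag2 made up 28.2% to 51.0% in tumors and 10.2% to 11.7% in normal lung. Dll3 made up 13.2% to 29.5% in tumors and at most 0.0938% in normal lung. Jag1 made up 7.85% to 17.0% of ligand reads per length in tumors, against 32.2% to 38.2% in normal lung. The ratio of Jag2 to Jag1 in CPM, in which their lengths do not change between libraries, was 1.51 to 5.91 in tumors and 0.242 and 0.331 in normal lung.

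**Figure D3:**
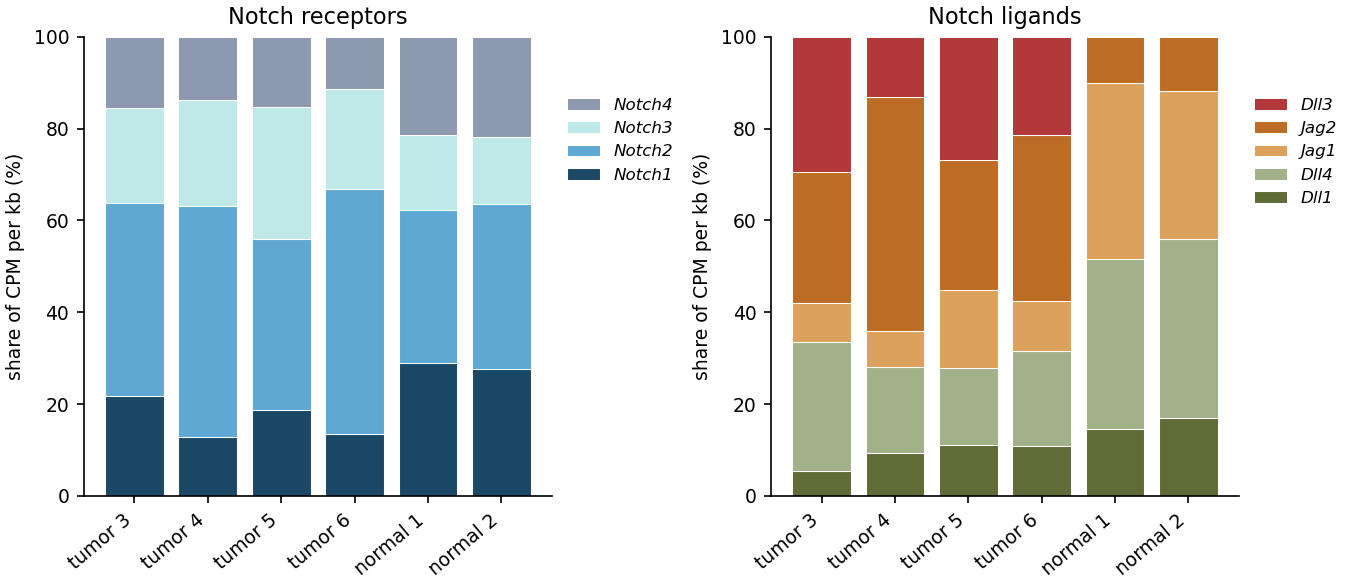
Shares of CPM per kilobase of exon taken by each receptor (left) and each ligand (right) in each library, in percent, with tumors left of normal lung. Dll3 and Jag2 together take the larger part of the ligand bars in every tumor and under 12% in normal lung.

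The sum of the activating ligands was reduced by less than that of the receptors. Within a library, the log2 ratio of their summed CPM to that of the 4 receptors was 1.40, 1.66, 1.20 and 1.01 in tumors 3 to 6 and -1.41 and -1.29 in normal 1 and 2. The ratio thus averaged 1.32 over the tumors, against -1.35 in normal lung, a difference of 2.67. The log2 ratio of Dll3 to the activating ligands was -2.04, -3.57, -2.28 and -2.69 in tumors 3 to 6, and -10.8 in normal 2 and at most -13.2 in normal 1, where the floor of 3 counts stands in for 0. Each of these ratios, like the 3 against cell markers below, separated all tumors from both normal libraries. An exact two-sided permutation test gave p = 0.133 for each of the 5 ratios, also after Benjamini-Hochberg adjustment over them, which is the smallest p that 4 against 2 libraries allow.

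Markers of the vessel cells that use these genes fell too. The counts of each marker list below are to be read beside the 32.6% lower and 31.3% higher over all genes. All 16 endothelial genes were lower in tumors, with a median log2 fold change of -5.25 and a summed level of 104 to 162 CPM in tumors against 5034 to 5446 CPM in normal lung. The defining markers Pecam1 and Cdh5 stood at 16.7 to 27.1 and 11.9 to 21.6 CPM in tumors, against 883 to 987 and 715 to 859 CPM in normal lung, so neither was at 0. Notch4 changed on nearly the same scale as this list. The log2 ratio of Notch4 to the endothelial sum was -5.10, -4.87, -4.73 and -4.24 in tumors 3 to 6 and -5.48 and -5.55 in normal 1 and 2, a difference of 0.78. Dll4 did not follow the list, as its log2 ratio to the endothelial sum was -2.13, -2.41, -2.81 and -1.80 in tumors 3 to 6 and -5.96 and -5.81 in normal 1 and 2. That ratio was 3.60 higher in tumors, and 3.44 to 3.77 higher with any 1 library left out.

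For Notch3, the list of pericyte and smooth muscle genes had 10 of 12 genes lower and 1, Rgs5, higher, with a median log2 fold change of -2.42. The defining markers Acta2 and Pdgfrb stood at 39.9 to 63.5 and 15.4 to 33.8 CPM in tumors, against 134 to 209 and 183 to 206 CPM in normal lung. The log2 ratio of Notch3 to the summed list was -5.41, -4.89, -4.56 and -4.61 in tumors 3 to 6 and -3.47 and -4.05 in normal 1 and 2, a difference of -1.11. With Rgs5 left out of the sum, a choice made after its values were seen, the difference was -0.53, the groups overlapped and the exact two-sided permutation p was 0.267. The part of these cells in the values of Notch3, Notch4 and Dll4 was not tested.

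**Figure D4:**
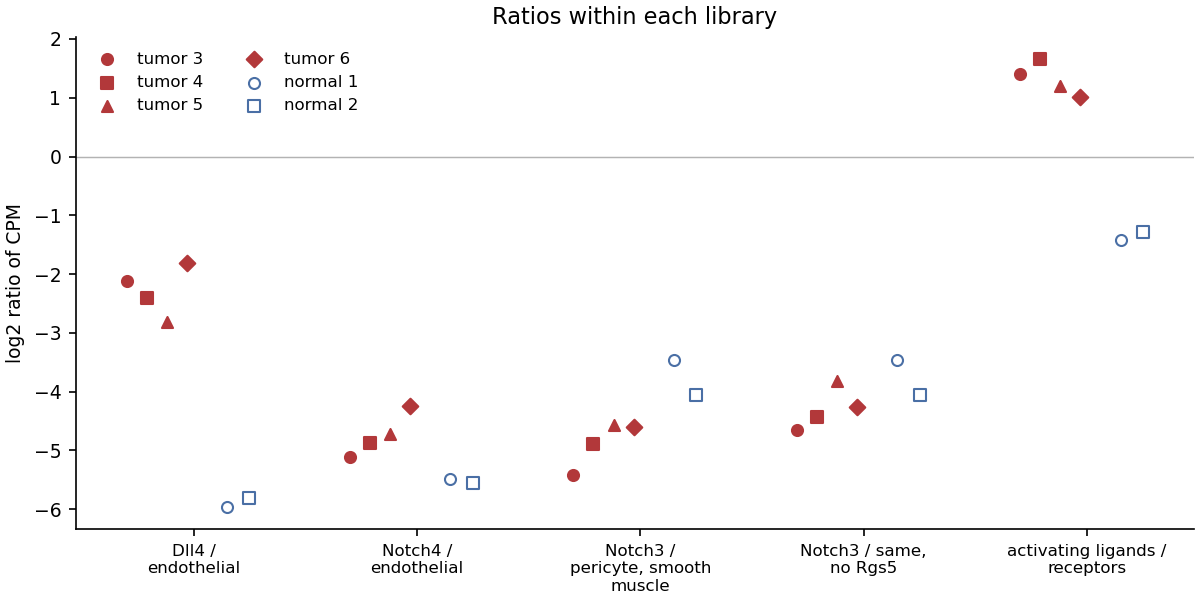
Log2 ratios of CPM within each library, with filled red symbols for tumors and open blue symbols for normal lung. Dll4 against the endothelial sum lies between -2.81 and -1.80 in tumors and near -5.9 in normal lung, while Notch4 and Notch3 move by far less against their cell markers.

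Most markers of the other lung and immune cells, where Notch receptors and Jagged ligands are also made, were lower as well. The counts of lower genes were 6 of 9 for club and secretory cells, 8 of 9 for ciliated cells, 8 of 8 for alveolar type 1, 8 of 8 for alveolar type 2 and 7 of 10 for fibroblasts, with none higher. Among immune lists, 7 of 9 macrophage and monocyte genes, 8 of 9 T and NK cell genes and 5 of 8 B and plasma cell genes were lower, and none was higher. Of the defining markers of these lists, Col1a1 of fibroblasts, Cd68 of macrophages and Ms4a1 of B cells did not pass (edgeR adjusted p = 0.346, 0.145 and 0.0858). The other defining markers were lower. The B and plasma cell count was 2 without normal 2 and 8 without tumor 3. Scgb1a1 and Cyp2f2 of club cells fell to 39.4 to 182 and 1.81 to 13.9 CPM in tumors, against 22586 to 25588 and 2571 to 2625 CPM in normal lung. The sum of all 9 club and secretory genes, 3 of which did not pass, was 84.0 to 519 CPM in tumors and 34048 to 36604 in normal lung. The part of these cells in the receptor values was not tested.

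Of the other genes of the pathway, 86 were listed, 84 were tested, 39 were lower and 15 higher in tumors, which is 46.4% and 17.9% of those tested against 32.6% and 31.3% over all genes. The counts of each pathway list below are to be read beside these shares over all genes. The median log2 fold change of the pathway genes tested was -0.60. Of the 54 called, none turned its direction under the 14 other settings and 38 kept their call under all of them, and each of the other 16 lost it without normal 1 or without normal 2, several of them under further settings too.

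Of the 16 listed Notch targets, 15 were tested, 9 fell and 3 rose, with a median log2 fold change of -2.05. Hes1, the repressor that keeps airway cells from the neuroendocrine fate, had 4.32, 5.58, 4.90 and 3.61 CPM in tumors 3 to 6 and 75.8 and 82.4 CPM in normal 1 and 2. Its log2 fold change was -4.10 (SE 0.21, edgeR adjusted p = 3.47e-05), against -4.63 for Notch1. Rest, the repressor of neuronal genes, fell to 3.04 ± 0.715 CPM in tumors, against 53.6 ± 0.841 CPM in normal lung, and Cd44, an adhesion receptor, to 20.3 ± 4.29 CPM in tumors, against 226 ± 8.09 CPM in normal lung. The members that rose were Hes5, the Notch effector of neural progenitors, Dtx1, a ubiquitin ligase that binds the receptor, and Myc, which is engineered in this model. Hes5 reached 1.53 to 3.75 CPM in tumors, against 0.0406 and 0.0647 CPM in normal lung, and Dtx1 23.6 ± 7.20 CPM in tumors, against 3.74 ± 1.63 CPM in normal lung (edgeR adjusted p = 0.000489 and 0.00239).

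Receptor processing genes were lower. Of 9 cleavage genes 8 fell and none rose, with a median log2 fold change of -0.76. The count of lower genes was 6 with upper quartile scaling and also 6 without tumor 6. Leaving out either normal library reduced it as well. Furin, the convertase that makes the first cut in the receptor, fell by 2.07 on the log2 scale, Aph1a of the γ-secretase complex by 1.52, and Adam17, a sheddase, by 1.19 (edgeR adjusted p = 0.000857, 0.000665 and 0.000482). The smallest of these falls was Adam10, the protease of the ligand-induced cut, at 122 CPM in tumors, against 171 CPM in normal lung (adjusted p = 0.0437), a call lost under 11 of 14 other settings.

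Of 8 genes of sugar modification 2 rose, 2 fell and 4 did not pass, both shares below the 31.3% higher and 32.6% lower over all genes. Mfng, a Fringe enzyme that alters which ligands a receptor answers to, had 110, 110, 102 and 110 CPM in tumors 3 to 6 and 28.9 and 32.4 CPM in normal 1 and 2 (log2 fold change 1.82 ± 0.14, edgeR adjusted p = 0.000121). Lfng, a Fringe enzyme of the same family, fell to 7.39, 30.9, 13.1 and 9.11 CPM in tumors 3 to 6, against 49.4 and 52.0 CPM in normal 1 and 2 (log2 fold change -1.75 ± 0.55, edgeR adjusted p = 0.0287). The Mfng level was thus nearly the same in every tumor, whereas Lfng was highest in tumor 4. The call of Lfng was lost when either normal library or tumor 3, 5 or 6 was left out (adjusted p from 0.0522 to 0.102). Poglut1, which adds glucose to the receptor, rose by 0.71, and Gxylt1, which extends that sugar, fell by 0.80 on the log2 scale. Without normal 1 none of the 8 was lower and 1 was higher, without normal 2 the counts were 1 and 1, and without tumor 3, 5 or 6 there was 1 lower gene.

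Of 7 genes that act on ligands 4 fell and 2 rose. Neurl1a and Neurl1b, ubiquitin ligases that drive ligand uptake, rose to 40.3 ± 15.6 and 52.1 ± 13.4 CPM in tumors, against 6.22 ± 1.03 and 22.1 ± 0.215 CPM in normal lung. The call of Neurl1b was lost without normal 1 or normal 2 (adjusted p = 0.0598 and 0.0599), which left 1 higher gene. Epn2, an endocytic adaptor, fell by 1.95 on the log2 scale, and Neurl3 and Mib2, ligases of the same kind, by 2.25 and 1.03. Mib1, the ligase most used for Notch ligands, was at 105 CPM in tumors, against 143 CPM in normal lung, and did not pass (adjusted p = 0.0666).

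**Figure D5:**
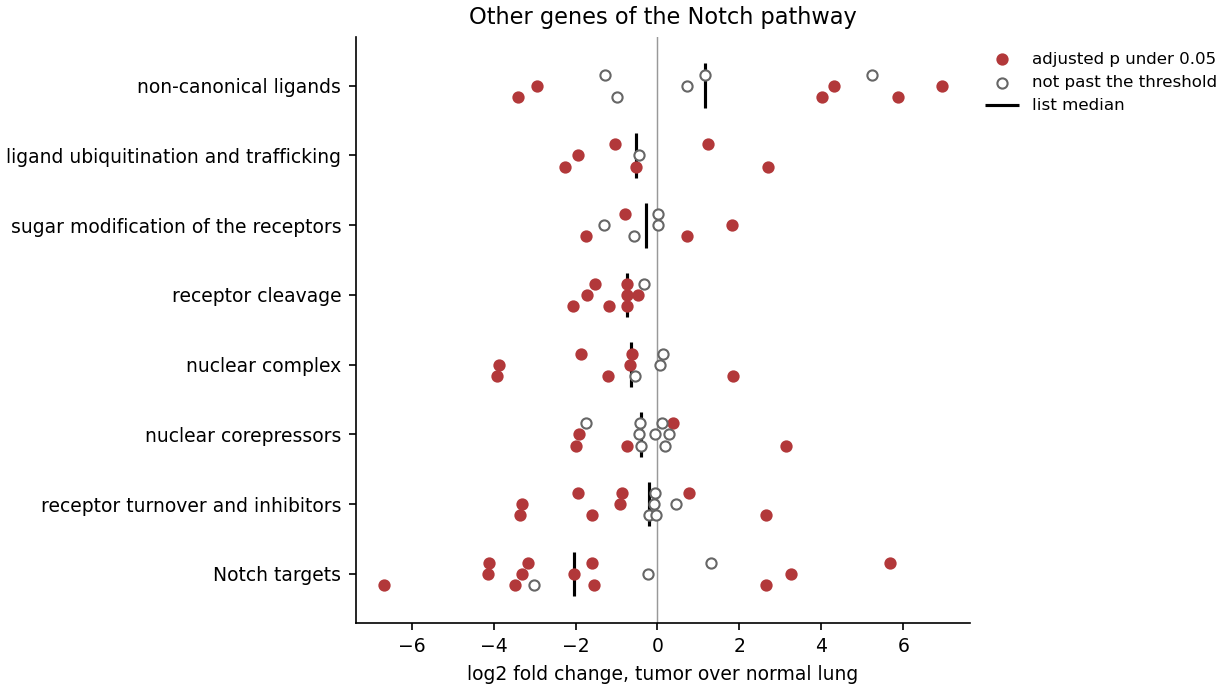
Log2 fold change of tumor over normal lung for each tested gene of the 8 pathway lists, filled where the adjusted p is under 0.05, with a bar at each list's median. Cleavage genes lie at or below 0, and the non-canonical ligand and target lists hold the genes that moved furthest.

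In the nucleus, Rbpj itself had 55.4, 58.6, 81.3 and 70.3 CPM in tumors 3 to 6 and 58.4 and 62.7 CPM in normal 1 and 2, so the groups overlapped and it did not pass (log2 fold change 0.13 ± 0.19, edgeR adjusted p = 0.568). Of 10 genes of the nuclear complex 6 fell and 1 rose. The count of lower genes was 4 with library totals as the scaling and also 4 without tumor 6. It was reduced as well when either normal library was left out. Maml2, a coactivator of the cleaved receptor, fell to 2.92 ± 1.29 CPM in tumors, against 44.5 ± 4.82 CPM in normal lung. Rbpjl, a relative of Rbpj, fell by 3.88 and Kat2b, an acetyltransferase, by 1.88 on the log2 scale, while the related acetyltransferase Kat2a rose by 1.85. Of 13 corepressor genes 3 fell, 2 rose and 8 did not pass, both shares below the 32.6% lower and 31.3% higher over all genes. L3mbtl3 and Tle4 fell by 1.91 and 1.98 and Tle1 by 0.73 on the log2 scale, Bend6, a neural partner of Rbpj, rose by 3.13, and Ctbp1 rose by 0.39. The calls of Tle1 and Ctbp1 were lost without normal 1 or normal 2, that of Tle1 also without tumor 6, and that of Ctbp1 also without tumor 3 or 5, with library totals as the scaling and with no filter, each of which left 1 higher gene.

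Of 13 genes of receptor turnover and inhibition 6 fell, 2 rose and 5 did not pass. Numb, an inhibitor that is handed to 1 daughter cell in asymmetric divisions, fell to 12.3 ± 1.01 CPM in tumors, against 125 ± 5.05 CPM in normal lung, a log2 fold change of -3.35 (SE 0.14, edgeR adjusted p = 2.51e-05). Dtx3l and Nedd4l, ubiquitin ligases, fell by 3.31 and 1.94 on the log2 scale. Beside Dtx1, its relative Dtx3 rose by 0.78, a call lost without normal 1 or normal 2, which left 1 higher gene.

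Among 11 tested non-canonical ligands, proteins that bind Notch receptors without the usual activating domain, 4 rose and 2 fell. Over all genes 31.3% were higher and 32.6% lower, so the share that rose was near that of all genes. Dner, a neuronal ligand, had 139, 102, 208 and 131 CPM in tumors 3 to 6 and 0.762 and 1.58 CPM in normal 1 and 2 (log2 fold change 6.95 ± 0.54, edgeR adjusted p = 0.000112). Ccn3, a secreted matrix protein listed in the table under its older symbol Nov, had 1344, 799, 1048 and 468 CPM in tumors 3 to 6 and 12.2 and 18.8 CPM in normal 1 and 2 (log2 fold change 5.88 ± 0.58, edgeR adjusted p = 0.000276). Both were far above every normal library. Dlk2 rose to 1.04 to 6.27 CPM in tumors, against 0.102 and 0.259 CPM in normal lung. Egfl7, an endothelial protein that is also in the endothelial list, fell by 3.40 and Postn, a matrix protein, by 2.95 on the log2 scale. Without normal 1 there were 2 higher genes, as Dlk2 and Dlk1 lost their calls, and without tumor 6 there were 4 lower genes.

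The genes whose pattern over the 6 libraries was nearest to that of Dll3 were Gdap1, Tubb3 and Elavl2, with root mean square differences of 0.10, 0.26 and 0.28 in centered log2 CPM. Gdap1 acts in mitochondria of neurons, Tubb3 is a neuronal tubulin and Elavl2 a neuronal RNA-binding protein. For Notch4 they were Lamb2, Utrn and Itpripl2 (0.065, 0.10 and 0.11), and for Notch1 Utrn, Flt4 and Ptpn14 (0.10, 0.11 and 0.12), where Flt4 is a receptor of lymphatic endothelium. For Dll4 they were Tmem205, Dnajb2 and Ngly1 (0.036, 0.075 and 0.085), and for Jag2 Fastkd1, Slc35c2 and Ccdc86 (0.056, 0.063 and 0.09). The likeness rests mainly on the gap between tumors and normal lung.

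Among the tumors themselves the 9 genes did not share 1 order. Tumor 5 was highest for 5 of the 9 genes, namely Notch1, Notch3, Notch4, Jag1 and Dll3, and tumor 3 was lowest for 6, namely Notch2, Notch3, Notch4, Dll1, Jag1 and Jag2. Dll4 ran the other way, highest in tumor 3 and lowest in tumor 5. Tumor 3 also had the largest share of tailless RNA of the 6 libraries, at 13.9% of its counts, and tumor 5 the smallest of the tumors, at 5.46%. The part of that share in the order of the tumors was not tested. With those 3 RNAs removed, the 8 called of the 9 genes kept their calls and Jag2 passed at an adjusted p of 0.0386 (edgeR), while the protease Adam10, the acetyltransferase Crebbp and the target Hey2 lost theirs (adjusted p = 0.0892, 0.0504 and 0.0596).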

How the data were processed

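RNA from flash-frozen lung tumors and normal lung was poly(A) selected and made into libraries with an NEBNext Ultra II kit, per the labels' protocols. STAR 2.5.4a, Trimmomatic 0.36, Trim Galore, R 3.5.1, DESeq2 1.22.2 and the build mm9 appear without roles in the submitters' processing notes. The authors deposited raw counts per gene symbol from TPMCalculator, per the labels. The annotation, the strand setting and whether intron reads were counted are not given in the sources used, so reads of overlapping and antisense genes cannot be told apart.

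Counts were tested with edgeR 4.0.16 (quasi-likelihood, default filter by group with minimum count 10 and total 15, TMM) in R 4.3.3, tumor over normal, with Benjamini-Hochberg adjustment over all 18027 genes and a threshold of 0.05. CPM use TMM-scaled library sizes. An SE is the absolute log2 fold change over the square root of F. Alternatives were other scalings, other filters, DESeq2 1.42.0, voom of limma 3.58.1, removal of tailless RNAs, and leaving out each library. Exon lengths are GENCODE M21 unions on GRCm38, which may differ from the authors' models. All library pairs differed by more than sampling noise.

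The members and gene lists were chosen with earlier results of these data known. The text names all 9 members and, by smallest p, up to 3 called genes per direction of each pathway list. The 3 nearest genes of mean log2 CPM at least 2 are named for 5 members. Defining markers are named for the endothelial, pericyte and smooth muscle, club and secretory, basal, neuroendocrine and proliferation lists. For the other marker lists only the defining markers that did not pass are named. Neurod1, Rbpj, Adam10, Mib1, Rgs5, Krt17, Dlk1, Crebbp and Hey2 were added after their values were seen. Of the listed genes, Jedi, Emr1, Trbc1 and Igj were not analysed here, Hes7 was below the filter, and Ccn3 was matched by a synonym. In GRCm38, Dll4 overlaps Gm14207, and Notch1 and Jag2 overlap microRNA genes that are in the table. A result on 1 gene is not reported here.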

Additional observations from a re-analysis of the deposited data

Results flagged for a closer look

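Dll1 in tumors was the 1 value set of 14 examined (9 genes and 5 ratios) in which a tumor stood apart. On the log2 CPM scale the gap of tumor 3 to the nearest other tumor was 0.866 of the whole range over the 4 tumors, above Dixon's 95% critical value for 4 values. Dll1 was at 5.75 CPM in tumor 3 and at 13.0 to 14.7 CPM in tumors 4 to 6. Chance alone marks about 1 in 20 such sets.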

How the results depend on the processing

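No paired analysis was possible because the groups share no replicate number. The receptors, Dll4, Jag1 and Dll3 kept their direction and their call under all 14 alternatives, and none of the 9 genes turned its direction. Dll1 lost its call without normal 2 (log2 fold change -1.49). The number of genes that were higher was 2 instead of 1 with RLE, upper quartile or total-count scaling, the filter of 1 CPM, DESeq2, limma voom and tailless RNAs removed, since Jag2 passed there, with log2 fold changes from 0.86 with limma voom to 1.06 with upper quartile scaling. With a library left out, the number that were higher ran from 1 to 2 (Jag2 passed without tumor 3 at 1.11 and without tumor 4 at 0.68), and the number that were lower from 6 to 7. Over all genes, 7651 were called without normal 1 and up to 12079 with another library left out, against 11512 with all. The lone normal library was then taken to have the variability of the tumor group. The log2 ratio of Notch3 to its cell markers moved from -1.11 to -0.53 without Rgs5, a choice made after seeing the data, and the other ratios changed by less than their spread. Upper quartile scaling shifted all log2 fold changes by a median of 0.12. Depth limits Dll3 most, whose fold change rests on 14 counts in normal lung.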
